A study of Mus musculus with 4 samples.

Results

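The endothelium and haematoendothelial progenitors of the caudal region of E8.5 mouse embryos comprised 713 of 20198 filtered cells. These cells were chosen by their transcripts: at least 4 of 7 endothelial genes (*Cdh5*, *Cldn5*, *Esam*, *Flt1*, *Ramp2*, *Plvap* and *Cd34*) had at least 1 unique molecular identifier (UMI, a tag that counts 1 captured RNA molecule), and *Gata1*, the erythroid transcription factor, had 0. Cells were first kept where they held at least 3000 genes and 7500 UMIs and no more than 7% mitochondrial UMIs. The endothelium numbered 155 and 166 cells in the libraries WT 1 and WT 2, and 196 cells in each of the libraries *Grhl3*-null 1 and *Grhl3*-null 2. The other 19485 filtered cells served as the comparison. Only 1 cell in each WT library, and 0 in the null libraries, carried enough markers but was left out for *Gata1*.

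The study compared WT embryos with embryos lacking *Grhl3*, a transcription factor of the surface ectoderm that is needed for closure of the neural tube, by droplet single-cell RNA sequencing. Embryos came from matings of *Grhl3*+/- mice, and the null allele is constitutive, so that every cell of a *Grhl3*-null embryo carries it. The caudal parts of 5 WT embryos formed 1 pool and those of 3 *Grhl3*-null embryos another, and each pool was loaded as 2 reactions. The 2 libraries of a genotype therefore share their embryos, and every p-value below measures the spread between reactions of a pool and not between embryos. The 4 libraries held 6186, 5698, 6177 and 6178 cells and 230556666, 224056649, 232903564 and 217559026 UMIs, in the order WT 1, WT 2, *Grhl3*-null 1 and *Grhl3*-null 2, which is kept throughout. Of these, the endothelium contributed 7182788, 8734295, 9813645 and 9961782 UMIs. Its median cell held 40948, 39901, 41278.5 and 40056.5 UMIs, against 33326, 34500.5, 37902 and 35390 in the other cells. No cell barcode was shared between libraries among endothelial cells.

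*Grhl3* itself was counted 878 and 803 times in the filtered cells of the WT libraries and 12 and 14 times in those of the null libraries. In endothelium it was almost absent, with 3 and 6 UMIs in WT and 0 in both null libraries, where a count of 0 allows up to 0.306 and 0.301 CPM (UMIs of a gene scaled to a library total of 1e6). The pools also differed in sex. By *Xist* and 4 Y-linked genes, 63.9% and 63.8% of the filtered WT cells were female, against 37.6% and 35.6% of the null cells. Sex and genotype thus moved together across the pools, and values within each sex are given for the genes described most closely.

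Endothelial cells line all blood vessels. In the early embryo they arise from mesoderm that expresses the VEGF receptor KDR and, transiently, the ETS-family factor ETV2, and part of this mesoderm shares its origin with blood. As vessels mature, arterial cells switch on Notch ligands and connexins, venous and lymphatic cells switch on other receptors, and a haemogenic subset uses RUNX1 to give rise to blood cells.

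The genes of the rule are given as a description only, because they chose the cells. *Cdh5*, the cadherin of endothelial junctions, had 307, 288, 298 and 244 CPM. *Cldn5*, a tight junction protein, had 262, 245, 248 and 230 CPM, and *Esam*, an adhesion molecule of the same junctions, 169, 157, 157 and 143 CPM. Junction genes were thus lowest in *Grhl3*-null 2, with the other null library inside or next to the WT range. *Flt1*, a VEGF receptor, had 225, 226, 227 and 200 CPM, and *Ramp2*, the partner of the adrenomedullin receptor, 460, 423, 394 and 372 CPM. *Plvap*, which forms the diaphragms of caveolae and fenestrae, had 241, 232, 245 and 197 CPM. *Cd34*, a sialomucin of endothelium and blood progenitors, had 151, 163, 158 and 134 CPM. *Grhl3*-null 2 was the lowest of the 4 libraries for each of the 7 genes.

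Promoter windows of these genes are shown because many endothelial promoters are bound by ETS factors, the family of *Etv2*, *Fli1* and *Erg*. RefSeq windows on GRCm38.p6, running from 250 bases before to 50 after the transcription start, were at hand for 3 of the 7. They are *Cd34* (chr1:194938571-194938870, plus strand), *Flt1* (chr5:147725962-147726261, minus strand) and *Cldn5* (chr16:18776597-18776896, plus strand), written 5′ to 3′, with capitals marking an ETS-type core, CNGGAAG or its reverse complement CTTCCNG.
Cd34: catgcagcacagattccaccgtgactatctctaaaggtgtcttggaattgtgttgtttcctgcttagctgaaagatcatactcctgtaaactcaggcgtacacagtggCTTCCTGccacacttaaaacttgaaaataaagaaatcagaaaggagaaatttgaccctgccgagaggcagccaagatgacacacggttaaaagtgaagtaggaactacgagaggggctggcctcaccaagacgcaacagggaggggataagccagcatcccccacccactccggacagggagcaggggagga
Flt1: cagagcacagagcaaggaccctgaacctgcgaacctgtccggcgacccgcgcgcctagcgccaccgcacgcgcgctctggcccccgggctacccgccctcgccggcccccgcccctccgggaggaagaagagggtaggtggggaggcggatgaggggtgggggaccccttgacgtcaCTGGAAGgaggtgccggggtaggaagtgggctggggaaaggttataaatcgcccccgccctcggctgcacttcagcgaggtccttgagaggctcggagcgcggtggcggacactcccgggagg
Cldn5: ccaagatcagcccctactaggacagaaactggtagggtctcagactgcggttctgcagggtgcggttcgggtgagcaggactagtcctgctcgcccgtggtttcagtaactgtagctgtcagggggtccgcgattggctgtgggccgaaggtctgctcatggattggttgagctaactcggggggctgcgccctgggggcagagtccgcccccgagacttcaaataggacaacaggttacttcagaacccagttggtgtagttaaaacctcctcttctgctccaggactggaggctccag
*Cd34* and *Flt1* each held 1 match and *Cldn5* held 0. Among windows of the 42 genes of the rule and of the endothelial lists used below, 23 genes had a window, and 18 of their 32 windows (56.2%) held the core, against 10476 of 32851 windows of all genes (31.9%). These are matches of letters, not sites known to be bound.

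Endothelial genes outside the rule were high in these cells too, which is a description and no test, because they vary with the genes that chose the cells. All 20 endothelial surface and junction genes of a separate list were higher in endothelium than in the other cells of every library, with a median fold of 71.5. *Pecam1*, an adhesion molecule of endothelial junctions, had 106, 103, 101 and 85.2 CPM in endothelium against 0.496, 0.533, 0.624 and 0.760 CPM in the other cells. *Tie1*, a receptor tyrosine kinase of vessel walls, had a mean of 53.2 ± 3.25 CPM in WT and 45.0 ± 6.41 CPM in null endothelium (SD, n = 2). All 15 endothelial transcription factors of a further list were also higher in every library, with a median fold of 19.7. Erythroid transcripts were low. The 10 erythroid genes summed to 38.8, 26.9, 28.8 and 34.1 CPM in endothelium and to 2506, 1852, 1832 and 2208 CPM in the other cells. Their most abundant gene, the embryonic globin *Hba-x*, had 13.6, 9.04, 10.3 and 12.9 CPM, and *Ptprc*, the pan-leukocyte CD45 gene, had 0 UMIs in every library. Droplet libraries carry free RNA, whose share in these low globin levels was not tested.

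Progenitor genes were ordered along the number of rule markers. For this description each cell was thinned to 7500 UMIs, so that deep cells could not detect more markers than shallow ones. *Etv2*, which starts the endothelial and blood lineage, was 9.97 CPM in the 17250 cells with 0 markers and 554 CPM in the 83 cells with 3. It then stepped down to 324, 177, 96.3 and 40.6 CPM in the cells with 4, 5, 6 and 7 markers. *Tal1*, a basic helix-loop-helix factor of the same step, over all libraries was also highest in cells with 3 markers, at 244 CPM, and had 43.7 CPM in cells with all 7. *Hhex*, a homeobox gene of early endothelium, had 281 and 284 CPM in cells with 3 and 4 markers and 89.7 CPM in cells with all 7. These progenitor factors were thus highest in cells with 3 or 4 markers left after thinning, and lower in cells with fewer or more. *Kdr* had 456 CPM in cells with 3 markers and 392 CPM in cells with 7. *Pecam1* had 17.7 CPM with 3 markers and 218 CPM with 7, and *Emcn*, the sialomucin endomucin, had 24.1 and 299 CPM. The surface genes of formed vessels went up over the range in which *Etv2* went down. Because such genes vary with the rule markers, their rise along the number of markers is a description and no test. The lower level of *Etv2* in cells with all markers was seen in each library. It had 509, 448, 667 and 570 CPM in cells with 3 markers and 29.3, 63.6, 30.2 and 40.7 CPM in cells with 7.

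**Figure D1:**
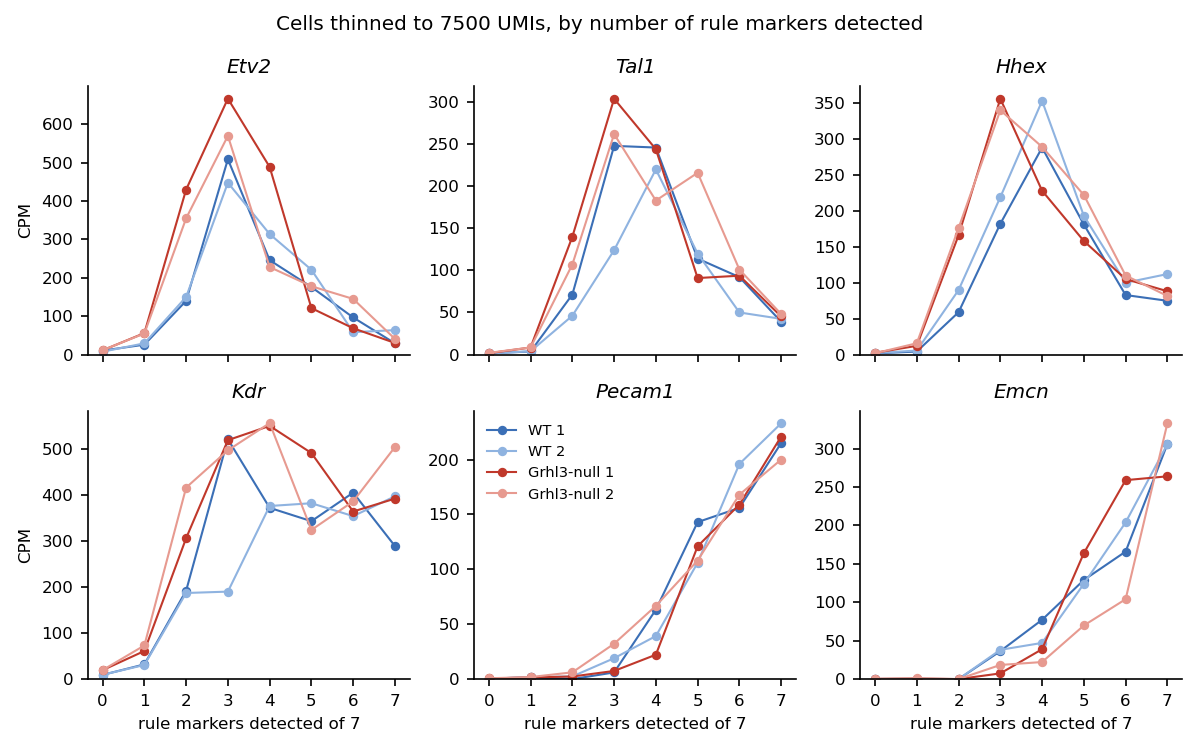
Level (CPM) of 6 genes against the number of the 7 rule markers detected, from 0 to 7, after thinning each cell to 7500 UMIs, with 1 line per library. *Etv2* is highest with 3 markers (554 CPM over all libraries) and *Pecam1* with 7 (218 CPM), in all 4 libraries.

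Without thinning, 12240 filtered cells had 0 markers, 5517 had 1, 1435 had 2 and 291 had 3, and 97, 88, 108 and 422 had 4 to 7. The 291 cells just outside the rule had 144 CPM of *Etv2*, 156 CPM of *Kdr*, 27.7 CPM of *Tal1* and 171 CPM of *Epcam*, a gene of epithelia. The 97 cells just inside had 310 CPM of *Etv2*, 341 CPM of *Kdr*, 94.7 CPM of *Tal1* and 180 CPM of *Epcam*. On unthinned counts *Etv2* and *Tal1* were highest inside the rule, at 591 and 254 CPM in the 88 cells with 5 markers, where *Epcam* had 10.3 CPM. Cells with 3 and 4 markers thus carried epithelial transcripts, and their median UMI counts, 54883 and 46325, were above those of the endothelium as a whole.

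Clustering of the 713 cells gave 7 subclusters, which describe how these cells varied and carry no test. The largest, with 172 cells, was led by *Gja5*, an arterial connexin, *Klf2*, a flow-responsive factor, *Vwf* and *Tmem100*, and 160 of its cells had all 7 markers. It had 728 CPM of *Cdh5* and 11.5 CPM of *Etv2*. Most *Runx1*, the factor of haemogenic endothelium, lay here, at 33.3 CPM, against 17.6 CPM in the *Kcne3*-led subcluster and 0.919 to 6.22 CPM in the others. *Cdkn1c*, a cyclin-dependent kinase inhibitor, was also highest here, at 920 CPM. At the other end, 105 cells formed an early angioblast-like subcluster, named for 4 of 6 markers among its 30 leading genes, with 817 CPM of *Etv2* and 12.1 CPM of *Cdh5*. These 2 subclusters thus stood at opposite ends for *Cdh5* and *Etv2*.

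Other groups lay between them. A subcluster of 117 cells led by *Fgf3*, *Cck*, *Gadd45g* and *Mmp9* had 260 CPM of *Etv2* and 79.6 CPM of *Cdh5*. One of 105 cells led by *Kcne3*, *Bik* and *Ctla2a* had 79.7 CPM of *Etv2* and 377 CPM of *Cdh5*. The third, of 70 cells, was led by *Lyve1*, a hyaluronan receptor of lymphatic and some venous and yolk sac endothelium, with *Cyp26b1*, *Clec1b*, *Npl* and *Selenop*. In WT 1 *Lyve1* did not mark it, with 13.9 CPM (6 UMIs) against 12.9 CPM in the *Gja5*-led and 13.7 CPM in the *Kcne3*-led subcluster of that library. It had 616 CPM of *Cdh5*, 25.4 CPM of *Etv2* and 3.06 CPM of *Hoxa9*, a posterior Hox gene that had 29.8 to 79.7 CPM in the other 6 subclusters. The *Lyve1*-led cells thus had the lowest *Hoxa9* of the 7 subclusters.

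Arterial, venous and blood genes were spread unevenly over these subclusters. *Dll4*, the Notch ligand of arteries and sprouting tips, had 102 CPM in the *Gja5*-led and 89.2 CPM in the *Lyve1*-led subcluster, and 6.41 to 49.9 CPM in the other 5. *Efnb2*, the ephrin of arterial cells, had 135 CPM in the *Gja5*-led subcluster and 65.3 CPM or less elsewhere. Both ligands were thus highest in the *Gja5*-led cells. *Nr2f2*, the venous nuclear receptor COUP-TFII, was lowest there, at 13.4 CPM, and highest in the *Crabp2*-led subcluster of other-tissue transcripts, at 68.1 CPM. *Aplnr*, the apelin receptor of venous and progenitor cells, had 183 CPM in the *Kcne3*-led and 161 CPM in the *Lyve1*-led subcluster, against 39.1 CPM in the *Gja5*-led one. *Stab2* had 27 UMIs in the *Lyve1*-led subcluster, counted as 0, 0, 15 and 12 in the 4 libraries and thus only in null cells, and 0 to 4 in each of the other subclusters. *Itga2b*, an integrin of early blood progenitors and platelets, had 43.2 CPM in the *Lyve1*-led and 34.3 CPM in the *Gja5*-led subcluster. *Spi1*, the myeloid factor PU.1, had 6.97 CPM in the *Kcne3*-led subcluster, 5.90 CPM in the *Gja5*-led one and 0 UMIs in the early angioblast-like cells. *Kit*, the receptor for stem cell factor, had 16.2 to 68.9 CPM over the 7 subclusters, highest in the *Kcne3*-led one. The blood genes thus had no single subcluster. The early angioblast-like cells had the most *Tal1*, *Kdr*, *Lmo2* and *Bmp2*, a secreted growth factor, with 335, 803, 747 and 122 CPM. *Mki67*, a marker of cycling cells, differed little, with 143 to 193 CPM over the 7 subclusters.

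The remaining 2 subclusters carried transcripts of other tissues. A gut-like subcluster of 66 cells (9 of 10 gut and visceral endoderm markers among its leading genes, with *Spink1*, *Ttr* and *Epcam* foremost) had a median of 61346 UMIs, and 21.2% of its cells were among the 5% with the highest doublet scores of their library. A subcluster of 78 cells led by *Crabp2*, *Fst*, *Foxb1* and *Meox1*, genes of neural and somitic tissue, had a median of 73626 UMIs, and 64.1% of its cells had such scores. In this subcluster 50.0% of cells held both male and female transcripts, against 7.58% in the gut-like subcluster and 6.18% of filtered cells outside the endothelium. Whether the cells of either subcluster are droplets with more than 1 cell was not tested. Of the few *Grhl3* UMIs in endothelium, 6 lay in the gut-like subcluster. The *Gja5*-led, early angioblast-like and *Crabp2*-led subclusters held 1 each. The gut genes summed to 48.3, 264, 87.7 and 455 CPM over the endothelium of the 4 libraries, high in the second reaction of each pool. Paraxial mesoderm genes summed to 172, 104, 147 and 144 CPM, and surface ectoderm and neural genes to 101, 171, 149 and 148 CPM. Counts below are therefore also given without these 2 subclusters.

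**Figure D2:**
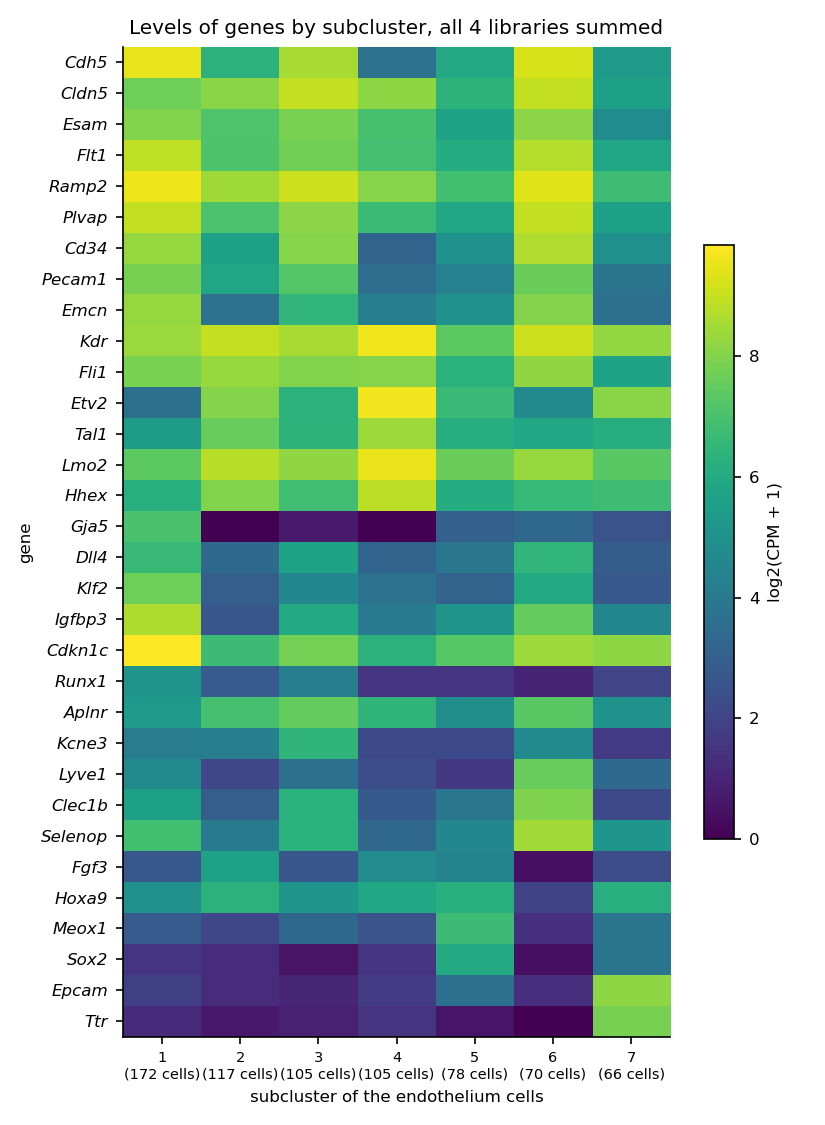
Level, log2(CPM + 1), of 32 genes in the 7 subclusters of the endothelium, cells of all 4 libraries summed, numbered as 1 *Gja5*-led, 2 *Fgf3*-led, 3 *Kcne3*-led, 4 early angioblast-like, 5 *Crabp2*-led, 6 *Lyve1*-led and 7 gut-like. *Cdh5* is highest in the *Gja5*-led subcluster (728 CPM) and *Etv2* in the early angioblast-like one (817 CPM), and gut and neural genes stand out in the subclusters named for them.

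The first comparison asked whether the share of endothelium differed between the genotypes. It was 2.84% (95% Clopper-Pearson interval 2.41 to 3.32) and 3.24% (2.78 to 3.77) of filtered cells in WT, and 4.05% (3.51 to 4.64) and 4.10% (3.56 to 4.70) in *Grhl3*-null. Both null libraries were above both WT libraries, with means of 3.04% ± 0.287 in WT and 4.07% ± 0.0365 in null (SD, n = 2) and a log2 ratio of 0.42. An exact two-sided permutation test of 2 against 2 libraries gave p = 0.333, the smallest value that this design allows. The intervals cover counting error only. Among female cells the shares were 2.35%, 3.03%, 4.50% and 5.53%, a log2 ratio of 0.90. Among male cells they were 3.65%, 4.06%, 3.38% and 3.43%, a log2 ratio of -0.18. The null libraries were thus above WT in female cells and below WT in male cells, and the pooled direction does not hold within both sexes. Without the subclusters of other tissues the shares were 2.46%, 2.48%, 3.19% and 3.29%. With every cell thinned to 7500 UMIs, so that depth could not set the number of markers, they were 2.14%, 2.38%, 2.81% and 2.66%, a log2 ratio of 0.27.

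**Figure D3:**
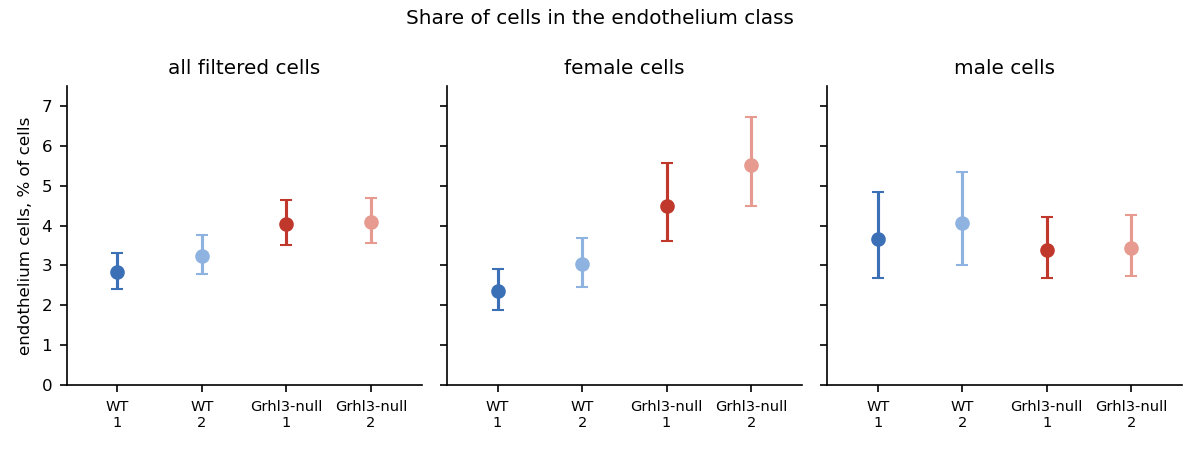
Endothelium as a percent of filtered cells in each library, for all cells, female cells and male cells, with 95% Clopper-Pearson intervals. Null libraries lie above WT among all cells (4.05% and 4.10% against 2.84% and 3.24%) and among female cells, and below WT among male cells. The male intervals all overlap.

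The second comparison asked which genes differed between *Grhl3*-null and WT endothelium. UMIs were summed over the endothelial cells of each library and compared by the quasi-likelihood method of edgeR, adjusting p-values (Benjamini-Hochberg) over the 11948 genes tested. At an adjusted p of 0.05, 10 genes were higher in null (0.0837% of those tested) and 8 were lower (0.0670%), 18 in all (0.151%), while 1204 genes had an unadjusted p under 0.05. Of the 18, 16 had the same sign in the other cells and 15 passed the test there too. The counts depended on single libraries. Leaving out WT 1, WT 2, *Grhl3*-null 1 or *Grhl3*-null 2 gave 60, 153, 38 and 39 genes higher and 91, 95, 69 and 27 lower, with the lone library of a genotype assumed to vary like the other pair. Without the subclusters of other tissues 15 genes were higher and 14 lower, and 17 of the 18 remained past the threshold. Of the 18, 12 remained past it among female cells and 4 among male cells.

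*Lyve1* (chr7:110850607-110863239, mm10) was the 1 venous and lymphatic gene that passed. It had 8.49 and 11.3 CPM in WT endothelium and 42.3 and 37.1 CPM in null endothelium. Both null libraries lay well above both WT libraries (log2 fold change 1.97, SE 0.15, edgeR adjusted p = 0.0017). The difference was carried by few cells. *Lyve1* had 61, 99, 415 and 370 UMIs in 36, 43, 48 and 46 cells, and the 10 highest cells held 49.2%, 56.6%, 83.6% and 80.8% of them. The highest cell alone held 7, 19, 215 and 57 UMIs, and without it the levels were 7.65, 9.26, 20.7 and 31.7 CPM, with the null libraries still above. After thinning, the share of cells with a *Lyve1* UMI was 7.10%, 9.04%, 7.65% and 9.18%, which overlapped between genotypes, against 0.0821% of the other cells. Cells with at least 10 *Lyve1* UMIs numbered 0, 1, 8 and 9. Null endothelium thus had more strongly positive cells and not a clearly larger share of cells with any *Lyve1*. Within the *Lyve1*-led subcluster the levels were 13.9, 38.1, 322 and 280 CPM. *Lyve1* was not left out of that clustering, so these levels are a description and no support for the difference. Among male cells *Lyve1* had 9.40, 11.9, 88.3 and 42.2 CPM, and among female cells 11.1, 13.4, 18.6 and 42.1 CPM. In *Grhl3*-null 1, male cells held 306 *Lyve1* UMIs and female cells 80, so the cell with 215 UMIs was among the male cells. The male level of *Grhl3*-null 1 thus rests largely on that cell. The direction was the same in each sex, without passing. The log2 fold change was 2.56 among male cells (edgeR adjusted p = 0.057), 1.30 among female cells (0.17) and 1.85 with sex as a term (0.057). *Stab2*, a scavenger receptor of sinusoidal endothelium, had 0, 0.343, 1.73 and 1.41 CPM and did not pass (edgeR adjusted p = 0.33). Its null UMIs came from 3 and 5 cells. Without the subclusters of other tissues both WT libraries were left with 0 *Stab2* UMIs. The call gained there (edgeR adjusted p = 0.038) thus compares few null cells with a count of 0, and no conclusion is drawn from it.

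*Cdkn1c* (chr7:143458339-143461050), which restrains the cell cycle, was the 1 proliferation gene that passed. It had 431 and 410 CPM in WT and 295 and 250 CPM in null endothelium, with no overlap (log2 fold change -0.64, SE 0.08, edgeR adjusted p = 0.024). In the other cells it had 135, 134, 153 and 148 CPM, slightly higher in null. *Tagln* (chr9:45929619-45936058), the actin-binding protein transgelin of smooth muscle and early mesenchyme, had 40.4 and 31.6 CPM in WT and 15.8 and 16.7 CPM in null endothelium. The null levels were lower (log2 fold change -1.16, SE 0.14, edgeR adjusted p = 0.024), whereas the other cells had 11.6, 12.3, 11.6 and 13.4 CPM. Both genes were highest in the *Gja5*-led subcluster, whose share was lower in both null libraries (35.5%, 27.1%, 23.0% and 13.8% when clustered without genes of unadjusted p under 0.05), and the part of this shift in their levels was not tested. Within that subcluster *Cdkn1c* had 1080, 978, 711 and 886 CPM, lower in both null libraries, and *Tagln* had 118, 93.8, 35.3 and 96.2 CPM, which overlapped. In the *Lyve1*-led subcluster *Tagln* went the other way, with 2.32, 3.27, 44.6 and 26.1 CPM (1, 3, 46 and 23 UMIs). *Cdkn1c* and *Tagln* were the only genes past the threshold in both this test and the test of a difference from the other cells, described below. Within single sexes they were less steady. *Cdkn1c* had 211, 494, 328 and 230 CPM among male cells, where the groups overlapped (log2 fold change -0.37, edgeR adjusted p = 0.84), and 568, 396, 325 and 287 CPM among female cells (edgeR adjusted p = 0.10). The null levels were lower in female cells without passing. *Tagln* had 46.1, 34.5, 18.1 and 7.41 CPM among female cells, but 18.8, 13.9, 14.7 and 27.6 CPM among male cells, where the groups overlapped. With sex as a term the edgeR adjusted p was 0.57 for *Cdkn1c* and 0.65 for *Tagln*, with log2 fold changes of -0.53 and -0.79. With high doublet scores removed it was 0.10 and 0.057, with log2 fold changes of -0.63 and -0.97.

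Genes of energy and sterol metabolism followed. *Bnip3*, a mitophagy receptor induced by hypoxia, had 37.2 and 36.5 CPM in WT and 58.9 and 57.9 CPM in null endothelium (log2 fold change 0.65, SE 0.08, edgeR adjusted p = 0.024). Among female cells it had 23.3, 26.3, 58.1 and 59.1 CPM and among male cells 54.9, 50.5, 44.7 and 49.5 CPM. The null levels were thus higher in female cells and lower in male cells. *Fdps*, farnesyl diphosphate synthase of the mevalonate pathway, had 115, 118, 76.6 and 63.8 CPM, lower in both null libraries (log2 fold change -0.74, SE 0.09, edgeR adjusted p = 0.024). In the other cells its log2 fold change was -0.79, near that in endothelium. Among male cells *Fdps* had 102, 83.0, 95.3 and 76.6 CPM, which overlapped (log2 fold change -0.12, edgeR adjusted p = 0.90), and among female cells 111, 136, 61.6 and 52.7 CPM (log2 fold change -1.12, edgeR adjusted p = 0.0043). With sex as a term the edgeR adjusted p was 0.35 for *Fdps* and 0.58 for *Bnip3*, with log2 fold changes of -0.65 and 0.55, somewhat smaller than without it. With high doublet scores removed neither gene passed (edgeR adjusted p = 0.067 for *Bnip3* and 0.057 for *Fdps*), with log2 fold changes of 0.70 and -0.75, as large as with them.

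**Figure D4:**
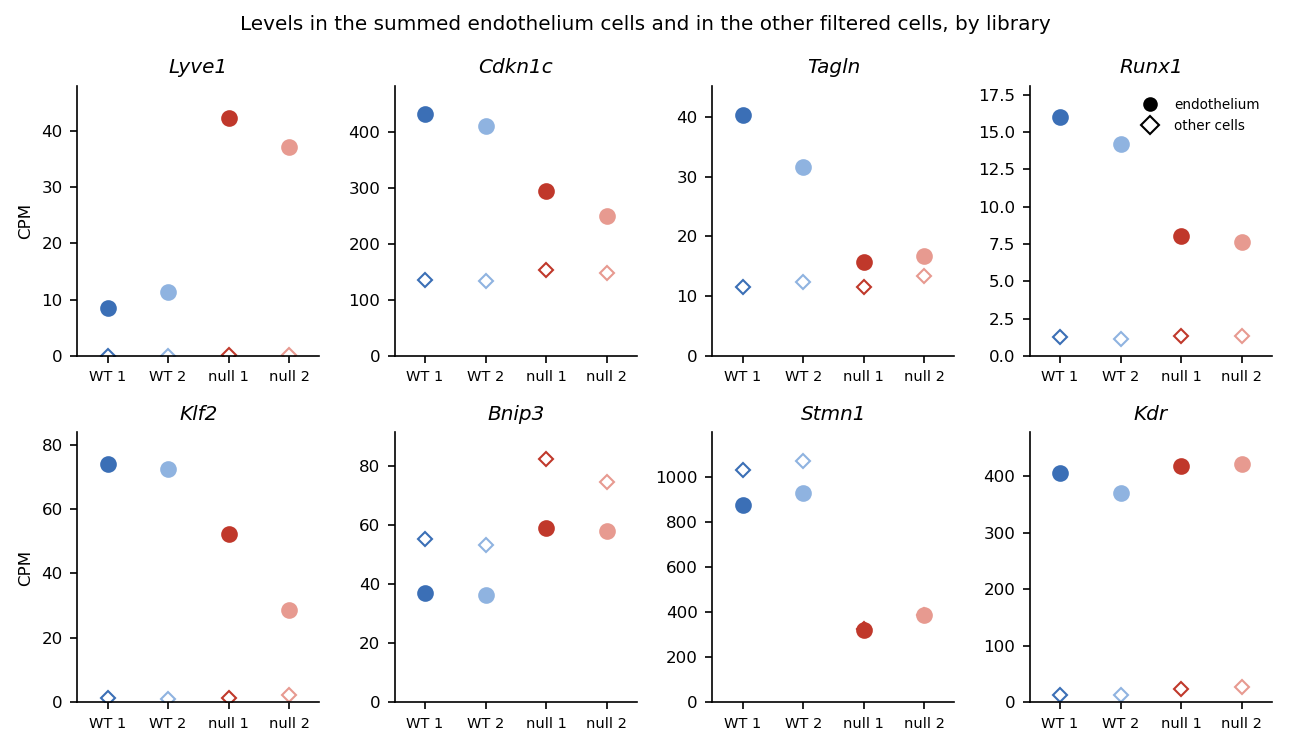
Level (CPM) of 8 genes in each of the 4 libraries, with filled circles for the endothelium and open diamonds for the other filtered cells. *Lyve1* is higher and *Cdkn1c* and *Tagln* are lower in both null libraries of the endothelium, whereas *Kdr* lies close between the genotypes in endothelium and is higher in the other cells of both null libraries.

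Of the 18 genes, 6 lay within 10 Mb of *Grhl3* on chromosome 4 (chr4:135541888-135573630), where 197 of the 11948 genes tested (1.65%) lay. *Stmn1*, a microtubule-destabilizing protein 1.09 Mb away, had 877, 926, 319 and 386 CPM (log2 fold change -1.37, SE 0.08, edgeR adjusted p = 3.9e-04). *Hdac1*, a histone deacetylase 6.03 Mb away, had 176, 156, 70.0 and 65.3 CPM (log2 fold change -1.31, SE 0.08, edgeR adjusted p = 3.9e-04). Both were far below WT in both null libraries, and their log2 fold changes in the other cells were -1.59 and -1.22. The others were *Rcan3* and *Aunip* (log2 fold changes -1.15 and -0.80), the ribosomal protein gene *Rpl11* (-0.33) and the RNA *Snhg12* (0.68). These 4 lost their call with high doublet scores removed (edgeR adjusted p = 0.083, 0.077, 0.067 and 0.067, with log2 fold changes of -1.11, -0.84, -0.31 and 0.71). They also lost it among male cells, where the log2 fold changes were -1.08, -0.63, -0.35 and 0.54. *Rcan3* and *Snhg12* further lost it among female cells (-1.05 and 0.76) and with sex as a term (-1.07 and 0.66, edgeR adjusted p = 0.12 and 0.074). *Stmn1* and *Hdac1* passed under every alternative run. The study kept its mouse lines on the C57BL/6 background, and the part of sequence linked to the targeted allele in these values was not tested.

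Another 3 genes were near-identical copies of expressed genes, between which reads cannot be told apart with confidence. *Gm10036* had 5.71, 5.15, 340 and 317 CPM and is 99.3% identical over 534 bases to *Rpl11*. *Gm10093* had 1.25, 0.916, 49.8 and 41.6 CPM and is 99.4% identical over 1444 bases to *Hdac1*. *Gm10282* had 9.88, 11.1, 36.2 and 30.2 CPM and is 99.3% identical over 1151 bases to *Hmgn2*. Each copy was higher in both null libraries. Added together, *Hdac1* and *Gm10093* had 178, 157, 120 and 107 CPM and *Rpl11* and *Gm10036* had 3647, 3665, 3249 and 3276 CPM, so that the sums were still lower in null. A further 3 of the 18 were *mt-Nd3*, a mitochondrial gene of respiratory complex I, and the ribosomal protein genes *Rps27* and *Rps15*, with log2 fold changes of 0.39, 0.33 and 0.28 in endothelium and 0.40, 0.33 and 0.25 in the other cells. All 3 lost their call with high doublet scores removed (edgeR adjusted p = 0.065, 0.067 and 0.083), with log2 fold changes as large, of 0.40, 0.35 and 0.28. They also lost it among male cells, where the log2 fold changes were 0.33, 0.33 and 0.17. *Rps15* further lost it with sex as a term (0.26, edgeR adjusted p = 0.057) and without the subclusters of other tissues (0.26, 0.073).

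**Figure D5:**
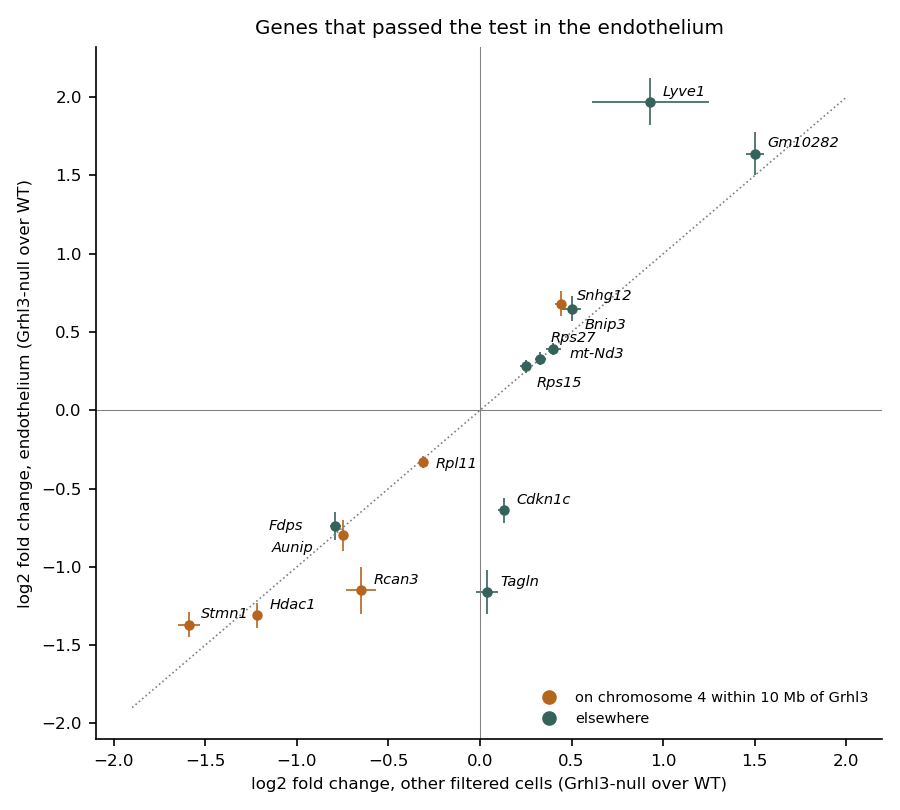
Log2 fold change of *Grhl3*-null over WT, with its SE, in the endothelium and in the other cells for 15 of the 18 genes past the threshold in endothelium, with genes within 10 Mb of *Grhl3* in brown. *Gm10036* and *Gm10093*, with log2 fold changes of 5.91 and 5.39, are not drawn. *Cdkn1c* and *Tagln* lie below 0 in endothelium and at 0.13 and 0.04 in the other cells.

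Most gene lists of vessel biology held no gene past the threshold, and with 0.151% of all genes past it a list of this size says little by such a count. The median log2 fold change of all genes tested was 0.00. Among receptors and junction genes, 0 of 20 passed, with a median of -0.10. *Kdr*, the main VEGF receptor, had 406, 369, 417 and 421 CPM in endothelium (log2 fold change 0.10, SE 0.06, edgeR adjusted p = 0.59). Its null libraries lay just above the WT libraries, by less than the test resolves. Among endothelial transcription factors 0 of 15 passed, with a median of 0.00. *Etv2* had 202, 176, 243 and 200 CPM, which overlapped (log2 fold change 0.22, SE 0.10, edgeR adjusted p = 0.52). *Fli1*, an ETS factor that stays on in formed vessels, had 213, 178, 212 and 216 CPM, and *Sox17*, a factor of arterial and haemogenic endothelium, had 105, 112, 110 and 112 CPM. *Tal1* had 121, 87.9, 120 and 124 CPM, with WT 2 the lowest. These factors overlapped between the genotypes. *Ecscr*, a surface regulator of endothelial migration, had 249, 229, 200 and 195 CPM, lower in both null libraries without passing (log2 fold change -0.29, SE 0.06, edgeR adjusted p = 0.20). *Emcn* had 115, 122, 129 and 78.4 CPM, low in *Grhl3*-null 2 only. Among vascular ligands 0 of 9 tested passed (median -0.05), among genes of BMP and TGF-beta signalling 0 of 11 (median -0.04), and among basement membrane and matrix genes 0 of 12 (median -0.10).

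The haematopoietic progenitor list had 7 of 12 genes tested and 0 past the threshold (median -0.09). *Runx1* had 16.0 and 14.2 CPM in WT and 8.05 and 7.63 CPM in null endothelium. The groups did not overlap, but the difference did not pass (log2 fold change -0.96, SE 0.15, edgeR adjusted p = 0.081). It passed without the subclusters of other tissues (log2 fold change -0.84, edgeR adjusted p = 0.043). It also passed with at least 3 or at least 5 markers (0.013 and 0.024) and with a mitochondrial limit of 5% (0.0084). It did not pass with high doublet scores removed (log2 fold change -0.94, edgeR adjusted p = 0.12) or with sex as a term (-0.73, 0.49). Within the *Gja5*-led subcluster *Runx1* had 42.4, 41.7, 20.7 and 24.3 CPM, again lower in both null libraries. Among male cells it had 9.93, 6.75, 7.22 and 9.04 CPM, which overlapped (log2 fold change -0.02). Among female cells it had 19.6, 20.4, 10.5 and 7.83 CPM (-1.14, edgeR adjusted p = 0.051). *Kit* had means of 39.6 ± 0.232 CPM in WT and 37.4 ± 0.319 CPM in null (SD, n = 2).

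Of the arterial genes, 13 of 14 were tested and 0 passed (median -0.09). *Jag2*, a Notch ligand, had 15.7, 11.4, 7.03 and 8.03 CPM (edgeR adjusted p = 0.29). *Dll4* had 51.2, 43.9, 41.2 and 30.4 CPM (edgeR adjusted p = 0.43). Both were lower in the null libraries than in WT without passing the test. *Gja5* varied widely within each genotype, with 39.7, 21.2, 43.1 and 14.1 CPM, and was low in the second reaction of each pool. The list of venous and lymphatic genes had 9 tested, *Lyve1* higher and 0 lower (median 0.10). *Nr2f2* had means of 35.4 ± 5.60 and 45.1 ± 1.88 CPM (SD, n = 2), and its log2 fold change of 0.34 did not pass. Flow-responsive genes had 0 of 6 past the threshold, with a median of -0.37. *Klf2*, a factor induced by shear stress, had 73.9, 72.4, 52.1 and 28.7 CPM (log2 fold change -0.87, SE 0.22, edgeR adjusted p = 0.32). Both null libraries were lower than WT, but they differed widely from each other. With at least 3 markers *Klf2* passed (log2 fold change -0.78, edgeR adjusted p = 0.017), but not with at least 5 (-0.80, 0.12). *Klf2* was concentrated in the *Gja5*-led subcluster, at 204 CPM against 62.2 CPM or less elsewhere, and the part of that subcluster's lower share in null was not tested. Within it *Klf2* had 213, 264, 202 and 92.0 CPM, with *Grhl3*-null 1 close to WT. In the *Lyve1*-led subcluster *Klf2* went the other way, with 11.6, 28.3, 58.2 and 127 CPM (5, 26, 60 and 112 UMIs). Among male cells *Klf2* had 40.7, 72.3, 45.9 and 21.8 CPM, which overlapped. Among female cells it had 114, 91.4, 76.5 and 39.8 CPM, lower in both null libraries without passing (log2 fold change -0.82, edgeR adjusted p = 0.21).

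The balance of subclusters was compared only after reclustering without the 1205 genes with an unadjusted p under 0.05 (rule genes included), so that those genes could not set it. Genes with weaker differences between genotypes stayed in the clustering. The *Gja5*-led group then held 35.5%, 27.1%, 23.0% and 13.8% of the endothelium, and the *Lyve1*-led group 3.87%, 9.04%, 13.3% and 8.67%. The *Gja5*-led shares were lower in both null libraries, whereas the *Lyve1*-led shares overlapped between genotypes. By sex the shares were counted only in the main clustering, as a description. There the *Gja5*-led subcluster held 40.2%, 28.3%, 29.3% and 18.1% of female members, which overlapped. Of male members it held 21.7%, 30.6%, 19.5% and 11.4%, lower in both null libraries. With 2 libraries per genotype no exact test could pass.

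Among genes of hypoxia and glycolysis 11 of 12 were tested, with *Bnip3* higher and 0 lower (median 0.11). *Hk2*, hexokinase 2, had 54.4, 54.0, 73.3 and 80.1 CPM and did not pass (edgeR adjusted p = 0.067). The list of proliferation genes had 12 tested, 0 higher and *Cdkn1c* lower (median 0.06). *Mki67* had means of 159 ± 7.20 and 172 ± 1.90 CPM (SD, n = 2). Of the posterior Hox genes 8 of 14 were tested and 0 passed (median -0.40). *Hoxc10* had 15.5, 23.9, 4.79 and 7.73 CPM (log2 fold change -1.67, SE 0.26, edgeR adjusted p = 0.081), below WT in both null libraries. It passed with at least 3 or at least 5 markers (edgeR adjusted p = 0.0027 and 0.010) and with a mitochondrial limit of 5% (0.0056). It did not pass with high doublet scores removed (log2 fold change -1.41, edgeR adjusted p = 0.27) or with sex as a term (-1.28, 0.34). Among female cells *Hoxc10* had 17.7, 10.9, 6.04 and 11.2 CPM, which overlapped. Among male cells it had 12.5, 24.6, 3.18 and 5.78 CPM, lower in both null libraries without passing (log2 fold change -2.07, edgeR adjusted p = 0.19). The lists of other tissues and of handling also held 0 genes past the threshold. They were erythroid genes (5 tested, median 0.03), gut and visceral endoderm (10, median 0.95), allantois (8, median -0.16), paraxial mesoderm (6, median 0.07), surface ectoderm and neural genes (7, median 0.77), dissociation genes (9, median -0.23) and sex-linked genes (5, median 0.47).

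The third comparison asked where the difference between genotypes in endothelium was itself different from that in the other cells. It was tested with 1 edgeR model of endothelium and other cells with a term for each library, over 16969 genes. The difference of log2 fold changes, endothelium minus other cells, was above 0 for 7 genes (0.0413%) and below 0 for 23 (0.136%), 30 in all (0.177%), and 1196 genes had an unadjusted p under 0.05. Without the subclusters of other tissues there were 40 above and 84 below. Leaving out WT 1, WT 2, *Grhl3*-null 1 or *Grhl3*-null 2 gave 81, 137, 26 and 28 above and 147, 94, 83 and 33 below.

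*Kdr* was among the genes below 0 (difference -0.87, SE 0.07, edgeR adjusted p = 6.4e-04). It had 12.5 and 12.7 CPM in the other WT cells and 23.5 and 27.0 CPM in the other null cells, whereas endothelium had like levels. The other cells include those just below the threshold of the rule, and their part in this difference was not tested. As a description, thinned cells with 0 rule markers had 9.11, 9.34, 19.4 and 19.5 CPM of *Kdr*. The VEGF co-receptor gene *Nrp1* (difference -0.65, edgeR adjusted p = 0.025) had the same pattern, with 25.5, 24.7, 35.6 and 38.5 CPM in the other cells and means of 117 ± 1.26 and 108 ± 11.7 CPM in endothelium (SD, n = 2). Its call was lost with high doublet scores removed (difference -0.67, edgeR adjusted p = 0.055) and among male cells (-0.56, 0.54). The same pattern held for the collagen IV genes of the basement membrane, *Col4a1* and *Col4a2*, with differences of -0.36 and -0.53. Their calls were lost with high doublet scores removed (edgeR adjusted p = 0.14 and 0.096), with differences of -0.37 and -0.52, about as large. They were also lost without the library term (0.25 and 0.24), at -0.35 and -0.52. Within each sex neither passed, with -0.20 and -0.52 among male and -0.26 and -0.31 among female cells. *Lmo2*, which bridges TAL1 and GATA factors, went the other way (difference 0.60, edgeR adjusted p = 0.0046). It had 62.1, 67.9, 44.5 and 43.5 CPM in the other cells, lower in null, and means of 310 ± 10.5 and 314 ± 8.19 CPM in endothelium (SD, n = 2). For these genes the genotypes differed mainly outside the endothelium. Paraxial mesoderm genes also differed in the other cells. *Tbx6* was detected in 40.5%, 41.6%, 26.4% and 24.8% of them and *Dll1* in 48.1%, 48.3%, 35.7% and 33.9%. *Meox1* went the other way, with 29.7%, 29.5%, 33.4% and 32.4%. The part of the mix of other cells in these differences was not tested. For *Cdkn1c* (difference -0.77, edgeR adjusted p = 5.9e-04) and *Tagln* (difference -1.18, edgeR adjusted p = 0.021) the genotypes differed in the endothelium and lay close in the other cells, with the same shift between subclusters beside them. Among male cells alone the *Kdr* difference was 0.10 and among female cells -1.95, so that this result rests on the female cells. The *Lmo2* difference was 1.25 among male cells (edgeR adjusted p = 3.7e-04) and 0.00 among female cells (edgeR adjusted p = 1.0), and so rests on the male cells. Among male cells alone *Cdkn1c* and *Tagln* did not pass (differences -0.72 and -0.62, edgeR adjusted p = 0.69 and 0.77). Among female cells *Tagln* did not (-1.27, edgeR adjusted p = 0.098).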

How the data were processed

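The authors deposited raw UMI counts per gene and cell for 4 libraries, made with Cell Ranger 3.0.0 per the file headers on mm10 per the labels. Read totals were not used, and depth is given as UMIs. From these counts, cells were filtered and chosen as described, and doublets were scored per library with Scrublet, whose automatic threshold marked 2, 2, 2 and 1 cells (0.0366%, 0.0391%, 0.0413% and 0.0209%) and was taken not to have worked. The 5% of highest scores were therefore removed only as an alternative. Counts summed per library were tested with edgeR 4.0.16 (R 4.3.3; TMM factors, filterByExpr, quasi-likelihood test), with the SE implied by the F statistic and the rule genes left out of the results. DESeq2 1.42.0 was an alternative. Clustering used scanpy 1.11.5 (2000 variable genes, 15 components, 15 neighbours, Leiden resolution 0.5). Cells with 2 or more Y-linked UMIs and no more than 2 of *Xist* were called male, those with 3 or more *Xist* UMIs and no more than 1 Y-linked UMI female, and the others neither. Gene positions are of the GENCODE annotation of mm10, and copies were found with blastn 2.17.0. The test was checked on simulated data.

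The members of this population, the 20 gene lists and the tests were chosen with earlier results of these data known. Genes named are those of the lists, the 10 per direction with the largest change past the threshold and a mean of at least 10 CPM, and the 5 per direction of the interaction. They also include the 5 leading genes of each subcluster. The 10 Mb window around *Grhl3* and the search for copies were chosen after values were seen. Paired libraries of a genotype were not the same library deposited again (chi-square per degree of freedom 2.93 for WT, 3.08 for null), and each was counted as 1 sample. Of the genes past the genotype threshold, 1 is counted but not reported here.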

Additional observations from a re-analysis of the deposited data

Results flagged for a closer look

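The difference between genotypes in endothelium departed from that in the other cells, by the edgeR interaction test, for 16 of the genes of the lists and of the naming rule. Among endothelial genes the differences of log2 fold changes were -0.87 for *Kdr*, -0.45 for *Gng11* (edgeR adjusted p = 0.027), -0.65 for *Nrp1* and 0.60 for *Lmo2*. For the matrix genes they were -0.36 for *Col4a1* (edgeR adjusted p = 0.042) and -0.53 for *Col4a2* (edgeR adjusted p = 0.037). They were -0.77 for *Cdkn1c*, -1.18 for *Tagln*, 1.46 for *Hoxc10* and -1.65 for *Nepn*. *Hoxc10* had 63.7, 65.6, 7.22 and 7.90 CPM in the other cells, so that its larger genotype difference lay outside the endothelium. Among male cells its difference was 0.33 (edgeR adjusted p = 0.94), that of *Vamp5* -0.46 (0.71), and among female cells that of *Gng11* -0.08 (0.87). The *Hoxc10* call was also lost without the library term (difference 1.44, edgeR adjusted p = 0.084) and without *Grhl3*-null 2 (difference 1.14). The *Gng11* call was also lost among male cells (0.13), with high doublet scores removed (0.061) and without the library term (0.064). *Nepn*, a proteoglycan gene of the gut, likewise had 22.2, 18.5, 52.4 and 60.2 CPM in the other cells. Its call was lost without the subclusters of other tissues (difference -1.84, edgeR adjusted p = 0.35) and with high doublet scores removed (-2.29, 0.38). It was also lost without the library term (-1.59, 0.15), so that the call went while the difference stayed about as large or grew. For *Btg2*, an antiproliferative gene, *Eogt* and *Fam212a* the differences were 0.95, 0.90 and 0.74. For *Tspan8*, *Pkdcc* and *Vamp5* they were -1.61, -1.52 and -1.09. Among male cells *Btg2* (difference 1.00, edgeR adjusted p = 0.068) and *Tspan8* (-1.19, 0.32) lost their calls. Among female cells *Eogt* (0.58, 0.15) and *Fam212a* (0.54, 0.073) lost theirs. In all 6 genes the other cells differed between genotypes while endothelium differed less. *Pkdcc*, a secreted kinase gene, for instance, had 9.21, 8.41, 21.8 and 22.5 CPM in the other cells and means of 42.8 ± 1.64 and 37.0 ± 3.83 CPM in endothelium (SD, n = 2).

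For 3 values both null libraries lay on one side of WT among male cells and on the other side among female cells, and the difference between the sexes was not tested. The log2 ratio of the endothelial share, null over WT, was -0.18 among male and 0.90 among female cells. The intervals of the male shares all overlapped. The log2 ratio of mean *Bnip3* CPM was -0.16 among male and 1.24 among female cells. That of *Etv2* was -0.50 among male cells, with 302, 300, 245 and 182 CPM, and 0.68 among female cells, with 185, 156, 304 and 243 CPM. Cells of a pool come from few embryos, and those of 1 sex from fewer.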

How the results depend on the processing

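Of the 10 genes higher and 8 lower in null endothelium, all 18 kept their direction under every alternative but male cells only, where *Bnip3* (-0.17) and *Tagln* (0.39) reversed. The causes of the changes below were not tested. Fewer cells enter under stricter rules. Genes higher numbered 90 with at least 3 markers, 19 with at least 5, 44 with a mitochondrial limit of 5%, 4 with high doublet scores removed, 2 among male cells and 23 with DESeq2, which gave 9 of the 18 genes no adjusted p and passed the other 9. Genes lower numbered 77, 14, 57, 2, 2 and 21 in the same order, 14 without the subclusters of other tissues and 19 among female cells. Leaving out 1 library gave 38 to 153 higher and 27 to 95 lower. For the difference from the other cells, the counts above and below 0 were 40 and 78 with at least 5 markers, 40 and 84 without those subclusters, 20 and 15 among male and 23 and 75 among female cells, and 14 genes were above 0 with doublets removed. Leaving out 1 library gave 26 to 137 above and 33 to 147 below. The *Kdr* difference reversed among male cells (0.10) and that of *Nepn* with at least 5 markers (0.56). The share's log2 ratio was -0.18 among male cells, 0.23 without the cell filter, 0.27 with cells thinned to 7500 UMIs, and 0.33 to 0.52 without 1 library. A Leiden resolution of 1.0 gave 12 subclusters. The fit with sex as a term, the runs without the subclusters of other tissues and the reclustering were chosen after seeing the data.

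With the replicate number as a block, 76 genes were higher and 89 lower, and all 18 remained. *Runx1* (adjusted p = 0.0063), *Klf2* (0.0015), *Hoxc10* (3.1e-05) and *Jag2* (0.039) then passed as well. Deviations of same-numbered libraries correlated at 0.271 over 11955 genes, but the labels give the numbers no shared origin and 2 numbers cannot settle a pairing, so the fit without the block was kept. With 2 reactions of 1 pool per genotype, differences between embryos and between genotypes cannot be told apart. The pools also differed in sex. *Stmn1*, *Hdac1*, *Gm10036* and *Gm10093* passed among male cells, among female cells and with sex as a term. The other genes past the threshold each lost their call among male cells. Male endothelial cells numbered 46 and 49 in WT and 77 and 79 in null. *Gm10282*, *Rpl11*, *mt-Nd3*, *Rps27* and *Aunip* still passed with sex as a term (log2 fold changes 1.66, -0.32, 0.39, 0.33 and -0.87). *Lyve1*, *Cdkn1c*, *Tagln*, *Bnip3*, *Fdps*, *Rcan3*, *Snhg12* and *Rps15* did not, and for them sex and genotype cannot be told apart.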
